A study of Anolis sagrei with 15 samples.

Results

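The comparison described here set the central and the temporal region of the embryonic posterior globe together against the nasal region in the brown anole, Anolis sagrei. A fovea is a pit in the retina with densely packed cones that gives the sharpest vision. Anoles are unusual among vertebrates in having a pair of foveae in each eye, a central one and a temporal one, while the nasal retina has none. The pits form late in development, after ganglion cells, amacrine cells and photoreceptors have been born, and gradients of transcription factors and of retinoic acid, the active form of vitamin A, tell each retinal region where it lies. The sample labels name the regions by position alone and do not say that a dissected piece held a fovea, so central and temporal are called the foveal regions here by their location in the adult eye. Nasal was the only region set against them, so a tie to the fovea cannot be told apart from position in the eye. A gene model was counted as a member when central and temporal each differed from nasal in the same direction. There were 1647 such gene models, of 15910 tested and 20235 in the count table.

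RNA was sequenced from posterior globe of embryos at Sanger stage 16.5, late in embryonic development, in 5 libraries each of the central, temporal and nasal regions, 15 in all. The embryos were of mixed sex and came from wild-caught parents. The study's methods describe eye tissue pooled from 3 embryos, and no treatment is named for any region. Nothing in the sources used here says that the replicates of a region came from separate animals. The p-values thus measure the spread between these libraries that is left after a term for replicate number, which may be technical in part.

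The libraries held 15712525 to 27035312 counted reads in the central region, 15177438 to 24688374 in the temporal region and 18365334 to 25166494 in the nasal region. Levels are given in CPM, which are counts per 1000000 counted reads after scaling between libraries, are not corrected for gene length and so are compared between regions and not between genes. The retina was well represented, since the photoreceptor protein recoverin (RCVRN) alone was at 7038, 6288 and 4985 CPM in central, temporal and nasal libraries on average. Central replicate 4 stood apart, with reads in 14994 gene models, against 17603 to 18617 in the other 4 central libraries. It also had the highest summed levels among central libraries for pigment epithelium and melanin genes (3267 CPM, against 1811 to 2188 CPM in the other 4) and for fibrous connective tissue and choroid genes (3923 CPM, against 645 to 1507 CPM). In bulk tissue, fewer cells of a type cannot be told apart from less RNA per cell, and this holds for every result below.

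A single model was fitted to all 15 libraries with terms for region and replicate number (the replicate block), and a gene model was called at an adjusted p of 0.05 or less. For the mean of the foveal regions against nasal, 3897 gene models were called (24.5% of those tested), of which 1996 were higher (12.5%) and 1901 lower (11.9%). Set against nasal by itself, central differed in 4438 gene models (27.9%) and temporal in 2216 (13.9%). The shared calls were 1647 gene models (10.4%), 951 higher than nasal in both regions (5.98%) and 696 lower in both (4.37%). The 2 contrasts with nasal use the same 5 nasal libraries, so a library error there moves both of them the same way. All 1647 were also called for the mean of the foveal regions, which nearly follows from the rule, since that mean averages the same 2 changes. Of the 2250 other calls of that mean, 1720 were called in central alone, 346 in temporal alone and 173 in neither, and the rest were opposite calls. The number of shared calls was 796 (541 higher, 255 lower) without the replicate block and 3073 in limma-voom.

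The shared rises were larger in size than the shared falls, given here as a description. Their median log2 change was 0.67, and 251 of 951 (26.4%) exceeded a 2-fold change. The shared falls had a median log2 change of -0.48, and 52 of 696 (7.47%) exceeded 2-fold. Over all gene models tested the median log2 change was -0.03. The 10 foveal libraries lay entirely above the 5 nasal ones for 473 gene models (2.97% of those tested), 436 of them shared rises, and entirely below for 324 (2.04%), 260 of them shared falls. Among gene models with a gene symbol, the shared calls end at a larger adjusted p of 0.05 for BCO1, with log2 changes of 0.55 in central and 0.89 in temporal. The next one outside, ANK3, had a larger adjusted p of 0.0502, with log2 changes of 0.20 and 0.26.

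**Figure D1:**
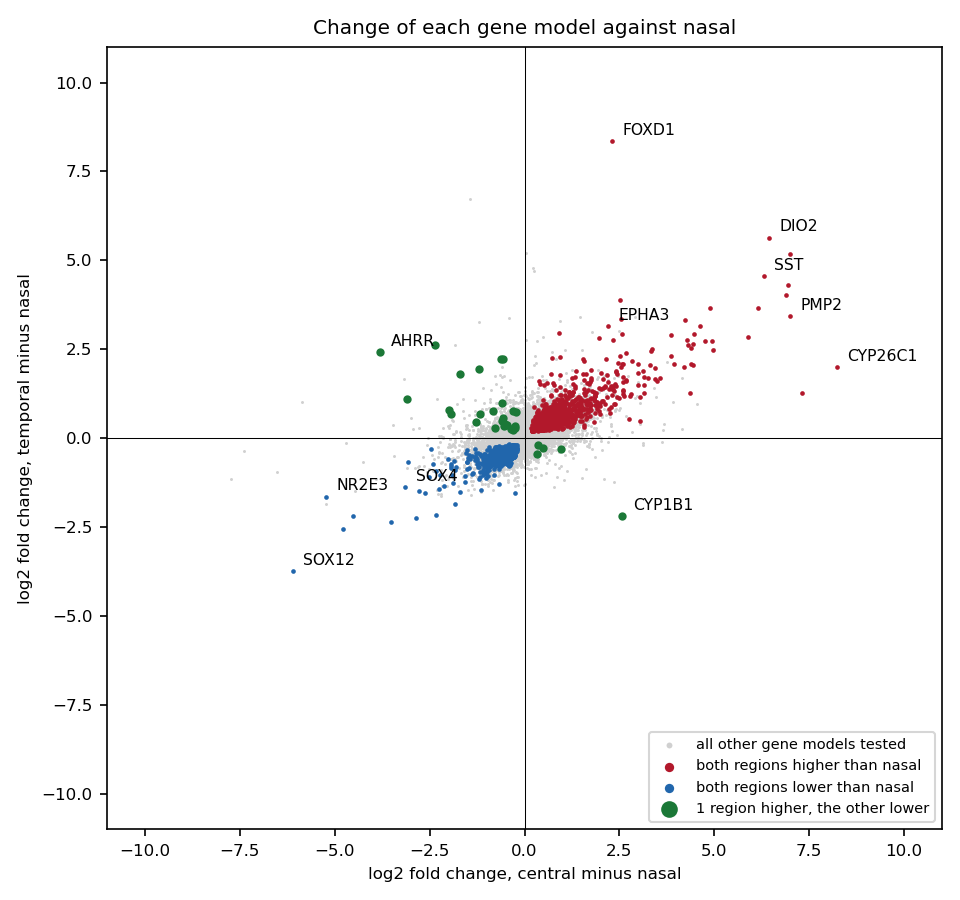
Log2 fold change of central minus nasal (horizontal) against that of temporal minus nasal (vertical), 1 point per gene model (both axes use the same 5 nasal libraries). Shared rises lie at the upper right, shared falls at the lower left, and gene models with opposite calls at the upper left and lower right.

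Most shared gene models had no call between the foveal regions themselves. Temporal and central differed in 2022 of all gene models tested (12.7%). Among the shared rises, 622 (65.4%) had no call between them, 36 (3.79%) were higher in temporal than in central and 293 (30.8%) were lower in temporal. Among the shared falls, 550 (79.0%) had no call, 142 (20.4%) were higher in temporal and 4 (0.575%) were lower in temporal. Where a shared gene model did differ between the foveal regions, the change from nasal was thus most often larger in central.

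Among shared rises with no overlap of libraries and at least 5 CPM in the higher group, the largest was DIO2, the deiodinase that turns the prohormone thyroxine into active thyroid hormone. DIO2 had 8.91, 10.7, 4.39, 10.9 and 4.30 CPM in the central libraries and 3.43, 5.22, 3.94, 4.39 and 3.93 CPM in the temporal libraries, against 0.0537, 0.251, 0.0985, 0 and 0 CPM in the nasal libraries. It was near its limit of detection in the nasal libraries, 2 of which had 0 reads and which held 9 reads together, and was present in every foveal library. Its log2 change was 6.04 (SE 0.46, adjusted p = 1.8e-07), and central and temporal did not pass the test of a difference (log2 temporal minus central -0.81, adjusted p = 0.123).

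SST encodes somatostatin, a neuropeptide of certain amacrine and ganglion cells. SST (ANOSAT006953) had 89.0, 129, 88.5, 72.7 and 54.6 CPM in the central libraries and 19.0, 29.4, 39.3, 22.5 and 19.7 CPM in the temporal libraries, against 1.61, 0.543, 1.63, 0.901 and 0.834 CPM in the nasal libraries. All 10 foveal libraries lay above all nasal ones, with central highest, and the log2 change was 5.43 (SE 0.23, adjusted p = 9.1e-10). The genes of this paragraph were chosen among shared rises without overlap, so their lack of overlap is a description. CYP26C1, which breaks down retinoic acid, had 51.2, 59.9, 40.6, 41.0 and 28.4 CPM in the central libraries and 0.330, 0.677, 0.438, 0.589 and 0.744 CPM in the temporal libraries, against 0.107, 0.167, 0.0985, 0.0530 and 0.238 CPM in the nasal libraries. Its foveal and nasal libraries did not overlap, but temporal was under 1 CPM in every library, and its log2 change was 8.23 in central and 2.005 in temporal. PMP2, a fatty acid-binding protein of myelin and glia, had 233, 288, 157, 55.9 and 109.5 CPM in the central libraries and 13.3, 9.56, 11.8, 13.6 and 13.3 CPM in the temporal libraries, against 1.61, 1.92, 0.887, 1.43 and 0.437 CPM in the nasal libraries. Again both foveal regions were above nasal in every library, at log2 changes of 7.001 in central and 3.42 in temporal.

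Other large rises came from several kinds of genes. HK2, a hexokinase that starts glycolysis, had 101, 104, 77.0, 62.3 and 48.4 CPM in the central libraries and 16.02, 18.4, 18.9, 22.5 and 17.4 CPM in the temporal libraries, against 5.69, 2.30, 1.77, 2.28 and 2.62 CPM in the nasal libraries, a log2 change of 3.75 (SE 0.23, adjusted p = 2.3e-08). KANK4, an ankyrin-repeat protein of the cytoskeleton, was at 110.0 ± 18.4 CPM in central and 30.3 ± 6.06 CPM in temporal libraries, against 5.22 ± 0.508 CPM in nasal libraries (SD, n = 5 each). ASL, argininosuccinate lyase, whose relative delta-crystallin fills the lens of birds and reptiles, was at 89.9 ± 36.9 CPM in central and 14.3 ± 13.1 CPM in temporal libraries, against 0.762 ± 0.261 CPM in nasal libraries (SD, n = 5 each). MGP, matrix Gla protein, an inhibitor of calcification, had a log2 change of 5.62 (SE 0.43, adjusted p = 1.8e-07). TBX18, a T-box transcription factor, had a log2 change of 4.35 (SE 0.39, adjusted p = 7.6e-07), and ADGRE5, an adhesion receptor also known as CD97, one of 3.24 (SE 0.23, adjusted p = 9e-08). MGP and TBX18 were near the limit of detection in nasal libraries, which held 12 and 20 reads of them together. The log2 change of TBX18 was 5.88 in central and 2.83 in temporal, where replicates 1 and 2 had only 10 and 9 reads. GUCA1A (ANOSAT009808) and GUCA1B, the calcium sensors of photoreceptor guanylate cyclase, had log2 changes of 3.46 and 3.53. The 15 largest rises also held DUPD1, UBAP1L and ABCB5, at log2 changes of 3.90, 3.83 and 3.76, with 38, 32 and 48 reads in the nasal libraries together. SST has 3 gene models of its symbol, and MGP, ABCB5, HK2 (here ANOSAT017843) and GUCA1B have 2 each, so reads could be split between such copies.

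**Figure D2:**
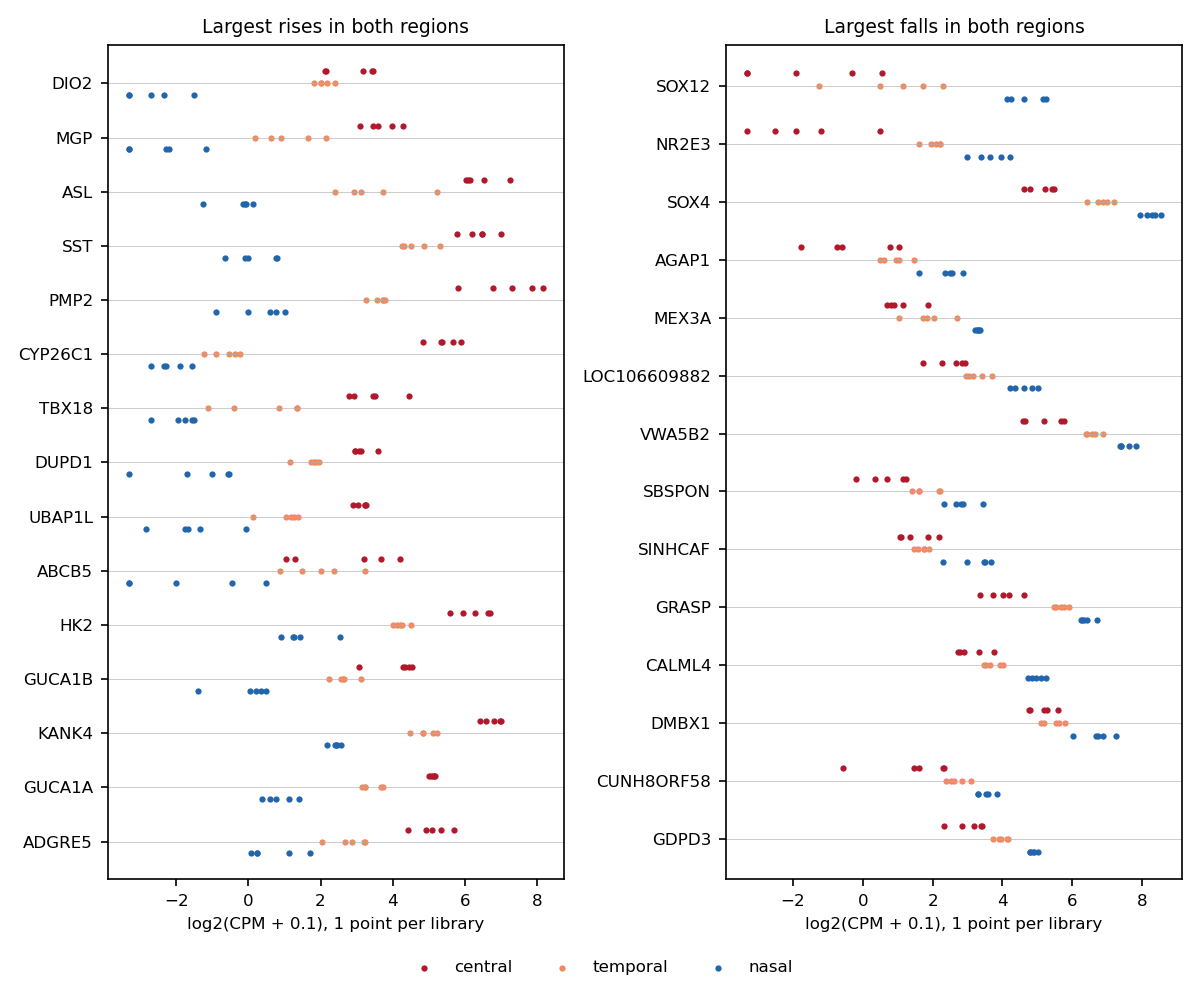
Levels of the 15 largest shared rises (left) and 14 of the largest shared falls (right) whose foveal and nasal libraries do not overlap, as log2(CPM + 0.1) on the horizontal axis with 1 point per library, and for each gene central above temporal above nasal. Points at the left end of the scale, such as DIO2 in 2 nasal libraries, are at 0 reads.

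Transcription factors of the SoxC family, which act in newborn neurons, fell together. SOX4 had 24.5, 27.8, 36.8, 44.6 and 42.7 CPM in the central libraries and 117, 145, 107, 85.3 and 128 CPM in the temporal libraries, against 247, 281, 329, 312 and 374 CPM in the nasal libraries, and the 3 regions did not overlap. Its log2 change was -2.26 (SE 0.12, adjusted p = 6.8e-09). SOX12 had 0, 0.705, 0.167, 0 and 1.37 CPM in the central libraries and 2.11, 4.82, 1.31, 0.317 and 3.18 CPM in the temporal libraries, against 19.0, 35.8, 17.5, 24.3 and 38.0 CPM in the nasal libraries, with 2 central libraries at 0 reads, and a log2 change of -4.92 (SE 0.35, adjusted p = 8.7e-08). SOX11 was also a shared fall, at 39.4 ± 10.9 CPM in central and 53.9 ± 7.56 CPM in temporal libraries, against 81.9 ± 19.5 CPM in nasal libraries (SD, n = 5 each), although its foveal and nasal libraries overlapped. NR2E3, a nuclear receptor that directs rod photoreceptor fate, had 0.167, 0.0742, 0.333, 0 and 1.32 CPM in the central libraries and 4.22, 4.54, 3.75, 2.94 and 4.55 CPM in the temporal libraries, against 7.84, 15.4, 10.3, 12.4 and 18.5 CPM in the nasal libraries. It was lowest in central, where every library was under 2 CPM, and its log2 change was -3.44 (SE 0.33, adjusted p = 1.9e-06).

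The other large falls that were named under the same limits had fitted log2 changes between -1.37 and -2.08. DMBX1, a homeobox factor, had a log2 change of -1.41 (SE 0.14, adjusted p = 2.6e-06), and VWA5B2 one of -1.63 (SE 0.11, adjusted p = 5.3e-08). MEX3A, an RNA-binding protein, was at 2.11 ± 0.820 CPM in central and 3.83 ± 1.64 CPM in temporal libraries, against 9.68 ± 0.384 CPM in nasal libraries (SD, n = 5 each). AGAP1, an Arf GTPase-activating protein, had a log2 change of -2.08, GRASP, a scaffold protein, -1.57, and CALML4, a relative of calmodulin, -1.56. The log2 changes of SBSPON, SINHCAF, GDPD3 and CUNH8ORF58 were -1.63, -1.62, -1.37 and -1.39. The shared call of CUNH8ORF58 was weak, with an adjusted p in temporal of 0.047, and was lost when any of 13 of the 15 libraries was left out. That of SBSPON was lost without nasal replicate 5, and that of AGAP1 without nasal replicate 3. The gene model named LOC106609882, whose symbol stands on 43 gene models in the table, had a log2 change of -1.74, and reads could be split among these copies. The same holds for AGAP1, MEX3A and SBSPON, whose symbols stand on 2 or 3 gene models each.

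Some shared genes were at nearly the same level in central and temporal. These were chosen for no overlap between foveal and nasal libraries and for a difference under 0.25 log2 between central and temporal. Their likeness and their lack of overlap are thus a description. TPPP3, a tubulin-binding protein, had 76.6, 83.4, 98.4, 58.6 and 68.3 CPM in the central libraries and 78.4, 81.4, 91.3, 82.3 and 71.8 CPM in the temporal libraries, against 31.3, 24.1, 27.8, 24.6 and 22.3 CPM in the nasal libraries, a log2 change of 1.60 (SE 0.09, adjusted p = 9.2e-09). CEMIP, which binds and degrades hyaluronan, was at 19.0 ± 4.39 CPM in central and 18.6 ± 5.12 CPM in temporal libraries, against 5.59 ± 0.866 CPM in nasal libraries (SD, n = 5 each), and FRZB, a secreted WNT antagonist, was at 7.18 ± 0.980 CPM in central and 6.58 ± 0.839 CPM in temporal libraries, against 2.19 ± 0.346 CPM in nasal libraries (SD, n = 5 each). IGF2, insulin-like growth factor 2, had a log2 change of 1.69 (SE 0.20, adjusted p = 1.3e-05). HNMT, which inactivates histamine, and CD22, a sialic acid-binding receptor, had log2 changes of 1.61 and 1.40. On the falling side PDLIM5, a PDZ and LIM domain protein of the actin cytoskeleton, had 97.8, 92.4, 117, 136 and 100.3 CPM in the central libraries and 107, 82.2, 103, 94.7 and 112 CPM in the temporal libraries, against 178, 205, 254, 259 and 199.7 CPM in the nasal libraries, and foveal and nasal libraries did not overlap. HES6A, a bHLH factor of the HES family, was at 20.4 ± 3.52 CPM in central and 20.6 ± 4.67 CPM in temporal libraries, against 41.3 ± 6.45 CPM in nasal libraries (SD, n = 5 each). IGDCC3, MEX3B and PLCXD1 had log2 changes of -1.07, -1.07 and -1.03, and the shared call of MEX3B was lost without temporal replicate 1, 4 or 5 or nasal replicate 1, 3 or 5. The symbols of HNMT and IGDCC3 stand on 2 and 3 gene models, so reads could be split.

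The 3 most abundant shared calls in each direction were named by their level. CA2, carbonic anhydrase 2, an enzyme of Müller glia, had 4902, 7710.5, 4794, 5863 and 5456 CPM in the central libraries and 2005, 2217, 2060.3, 2089.5 and 2042 CPM in the temporal libraries, against 1066, 1102, 1001, 743 and 714 CPM in the nasal libraries, and its log2 change was 1.91 (SE 0.10, adjusted p = 7.3e-09). RCVRN was at 7038 ± 791 CPM in central and 6288 ± 1210.4 CPM in temporal libraries, against 4985 ± 775 CPM in nasal libraries (SD, n = 5 each), with overlap between the foveal and nasal libraries, and a log2 change of 0.42 (SE 0.06, adjusted p = 9.1e-05). CKB, brain creatine kinase, had a log2 change of 0.34 (SE 0.05, adjusted p = 0.00024). Among abundant falls, RELN, the secreted guidance protein reelin, had a log2 change of -0.50 (SE 0.06, adjusted p = 2.9e-05), PCDHGC5, a clustered protocadherin, -0.44 (SE 0.06, adjusted p = 3.8e-05), and ACTG1, cytoplasmic actin, -0.33 (SE 0.05, adjusted p = 0.00016). The foveal and nasal libraries of CKB, PCDHGC5 and ACTG1 overlapped as well. The symbols of ACTG1 and RELN stand on 2 gene models each, so reads could be split. The shared calls of CKB, RCVRN and ACTG1 were lost without the replicate block, that of CKB also without central replicate 5 or nasal replicate 3, and that of RELN without temporal replicate 2, 3 or 4 or nasal replicate 4.

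Gene lists were then counted for shared calls, and each count reads against the 5.98% of gene models that were higher and the 4.37% that were lower over all tested. Among 9 nasal-temporal patterning factors, 2 were shared rises and 2 shared falls. FOXD1, the forkhead factor of temporal retina in chick and mouse, had 1.45, 0.779, 0.999, 0 and 0.635 CPM in the central libraries and 47.7, 60.1, 61.7, 34.7 and 45.8 CPM in the temporal libraries, against 0.268, 0, 0.296, 0.159 and 0.0794 CPM in the nasal libraries. It was high in temporal alone, and central passed the test at levels under 2 CPM, with 1 central library at 0, at a log2 change of 2.30 (adjusted p = 0.0062). HMX1, a homeobox factor of nasal retina, had 176, 176, 178, 154 and 138 CPM in the central libraries and 82.5, 68.2, 64.8, 70.2 and 52.6 CPM in the temporal libraries, against 229, 183, 196, 203 and 170.2 CPM in the nasal libraries. Central overlapped nasal, at a log2 change of -0.25 (adjusted p = 0.013), and temporal lay below both, at -1.54 (adjusted p = 4.4e-09). BMP2 (ANOSAT001912), a secreted ligand, was higher in both, at 29.9 ± 5.63 CPM in central and 14.0 ± 2.73 CPM in temporal libraries, against 8.97 ± 0.694 CPM in nasal libraries (SD, n = 5 each).

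EphA receptors and their ephrin-A ligands guide ganglion cell axons to map the nasal-temporal axis onto the brain. Of 17 gene models tested, 4 were shared rises and none a shared fall, and the list's median log2 change was 0.39. EPHA3 (ANOSAT008719) had 37.7, 37.3, 38.0, 44.3 and 41.2 CPM in the central libraries and 64.6, 67.7, 90.5, 73.4 and 86.8 CPM in the temporal libraries, against 6.23, 9.32, 10.3, 9.75 and 7.94 CPM in the nasal libraries, with no overlap and a log2 change of 2.67 (SE 0.11, adjusted p = 5.9e-10), and its second gene model (ANOSAT008720) had one of 2.95 (SE 0.19, adjusted p = 3.5e-08). EPHA6 and EPHA7 had log2 changes of 1.48 (SE 0.15, adjusted p = 2.5e-06) and 0.67 (SE 0.08, adjusted p = 8.8e-06). Among 13 dorsal-ventral patterning factors there was no shared rise and there were 4 shared falls, TBX2, VAX2 and 2 of 3 EPHB2 gene models, at log2 changes of -0.31, -1.48, -0.62 and -0.71. None of these 4 remained without the replicate block, where the list had 0 shared falls. The EPHB2 gene model that was not a shared fall (ANOSAT004086) had medians of 215, 276 and 248.5 CPM in central, temporal and nasal libraries.

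Retinoic acid and fovea-associated signals had 7 shared rises among 24 gene models, no shared fall and 2 opposite calls. For the mean of the foveal regions, 10 of these gene models were called higher and 2 lower. Beside DIO2 and CYP26C1 the shared rises were the retinoic acid-binding proteins CRABP1 and CRABP2, the ligand BMP7, the thyroid hormone receptor THRB and the retinol dehydrogenase RDH10. The relatives of CYP26C1 differed from it. CYP26A1 had medians of 0.891, 9.37 and 1.19 CPM in central, temporal and nasal libraries, and CYP26B1 had medians of 4.69, 5.50 and 7.39 CPM. CRABP1 had 269, 257, 176, 119.9 and 156 CPM in the central libraries and 75.9, 103, 78.4, 52.7 and 61.6 CPM in the temporal libraries, against 41.5, 34.4, 30.3, 19.2 and 34.0 CPM in the nasal libraries, a log2 change of 1.91 (SE 0.10, adjusted p = 7.6e-09). CRABP2 followed the same order at 176 ± 77.7 CPM in central and 70.3 ± 25.0 CPM in temporal libraries, against 27.8 ± 8.23 CPM in nasal libraries (SD, n = 5 each). THRB had a log2 change of 0.47 (SE 0.07, adjusted p = 0.00017) and RDH10 (ANOSAT011197) one of 0.47 (SE 0.09, adjusted p = 0.00078). A second gene model of RDH10 (ANOSAT009576) was not a shared call and was lower than nasal in central, at 7.57 ± 1.38 CPM in central and 13.0 ± 2.09 CPM in temporal libraries, against 12.9 ± 1.51 CPM in nasal libraries (SD, n = 5 each). The growth factor FGF8 was not a shared call, with a log2 change of 4.55 (adjusted p = 0.00084) in central and of 0.95 (adjusted p = 0.623) in temporal, and it was at 1.59 ± 0.808 CPM in central and 0.128 ± 0.121 CPM in temporal libraries, against 0.0592 ± 0.0692 CPM in nasal libraries (SD, n = 5 each).

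**Figure D3:**
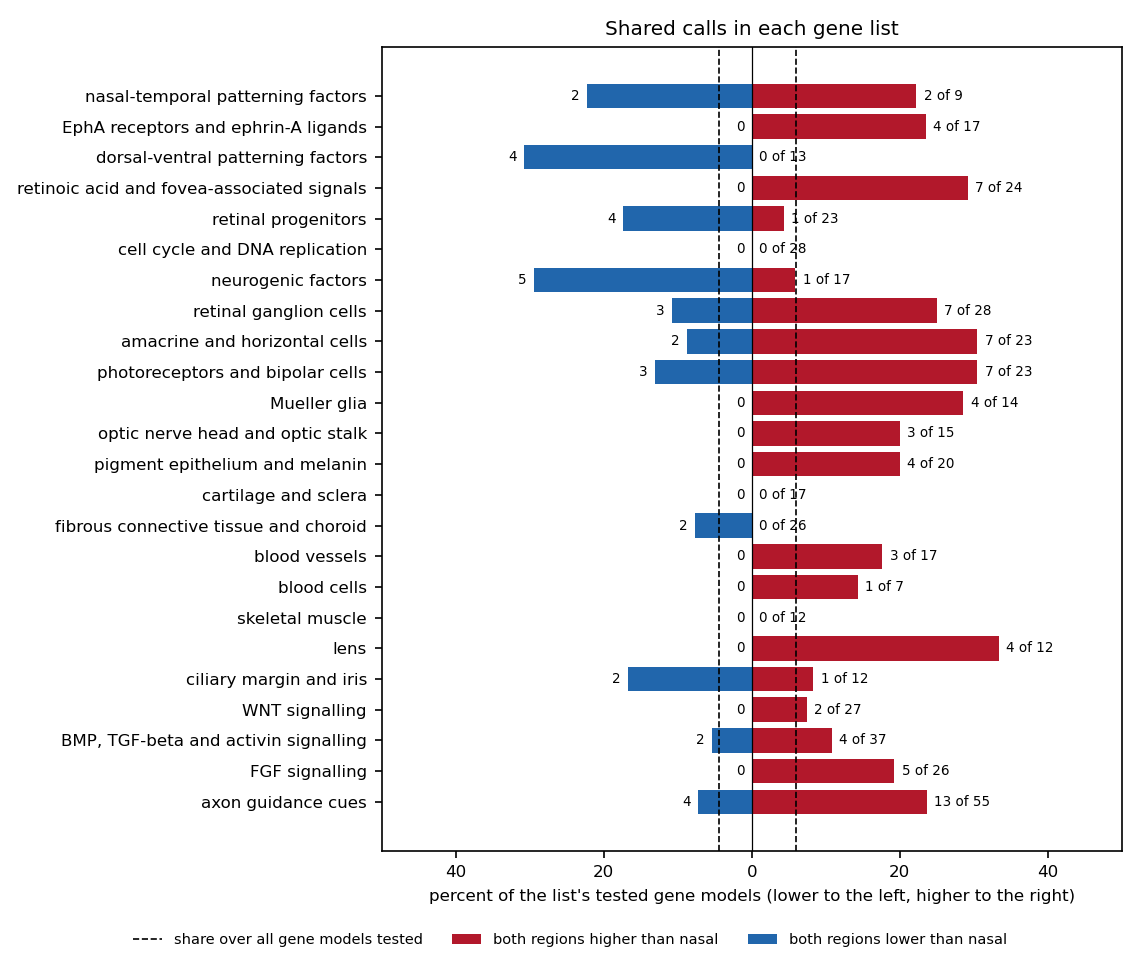
Percent of each list's tested gene models that were shared falls (bars to the left) and shared rises (bars to the right), with the counts beside the bars; dashed lines mark the shares over all gene models tested, 4.37% lower and 5.98% higher. Neurogenic factors and dorsal-ventral patterning factors have the longest bars to the left, and lens, amacrine and horizontal cell, and photoreceptor and bipolar cell lists the longest to the right.

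Of 28 cell cycle and DNA replication gene models, none was a shared call in either direction, and the list's median log2 change was -0.23. With central replicate 4 left out, 2 were shared falls. Neurogenic factors had 5 shared falls and 1 shared rise among 17, and the rise is about the share over all gene models. NEUROD4, a bHLH factor of differentiating retinal neurons, had 145, 155, 159, 148 and 178 CPM in the central libraries and 201, 164, 156, 158 and 184 CPM in the temporal libraries, against 310.4, 292, 286, 263 and 330.0 CPM in the nasal libraries, with no overlap and a log2 change of -0.85 (SE 0.06, adjusted p = 5.3e-08). NEUROD1 was at 52.2 ± 4.83 CPM in central and 83.6 ± 10.2 CPM in temporal libraries, against 125 ± 14.5 CPM in nasal libraries (SD, n = 5 each). OTX2, which directs photoreceptor and bipolar fate, fell in both of its gene models, at log2 changes of -0.48 (SE 0.05, adjusted p = 4.9e-06) and -0.53 (SE 0.05, adjusted p = 3.9e-06), and the Notch ligand DLL1 at -0.75 (SE 0.10, adjusted p = 6.7e-05). The rise was PRDM1, a repressor that favours photoreceptor over bipolar fate in mouse, at 0.78 (SE 0.08, adjusted p = 1.9e-06).

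Retinal progenitor genes had 4 shared falls and 1 shared rise among 23. RAX, a homeobox factor of the eye field, had 38.3, 44.6, 34.1, 59.6 and 49.2 CPM in the central libraries and 47.9, 53.9, 51.4, 43.7 and 44.4 CPM in the temporal libraries, against 62.1, 67.8, 57.1, 65.4 and 76.1 CPM in the nasal libraries, and its foveal and nasal libraries overlapped. RAX, HES5 and SIX3 fell at log2 changes of -0.49, -0.53 and -0.77, and SFRP1, a WNT antagonist, rose at 1.11. The SIX3 gene model that fell (ANOSAT020998) was the less abundant of 2, and the other (ANOSAT002911) was not a shared call, at 489 ± 121 CPM in central and 503 ± 92.1 CPM in temporal libraries, against 446 ± 101 CPM in nasal libraries (SD, n = 5 each). Without the replicate block, 1 of the falls and none of the rises was called. PAX6, a master regulator of eye development, had 2 gene models at log2 changes of 0.18 (SE 0.07, adjusted p = 0.085) and -0.03 (SE 0.05, adjusted p = 0.779), neither past the threshold.

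Ganglion cell genes went in both directions, with 7 shared rises and 3 shared falls among 28. NEFM and NEFL, neurofilament subunits of large axons, were highest in temporal. NEFM had 377, 312, 342, 113 and 174 CPM in the central libraries and 714, 874, 911, 624 and 493 CPM in the temporal libraries, against 217, 131, 151, 146 and 111 CPM in the nasal libraries, and central overlapped nasal. NEFL was at 196 ± 71.8 CPM in central and 369.9 ± 91.7 CPM in temporal libraries, against 133 ± 41.4 CPM in nasal libraries (SD, n = 5 each). THY1, RBPMS2, ELAVL4 and both L1CAM gene models also rose, at log2 changes of 0.58, 0.57, 0.38, 0.50 and 0.49. The falls were SOX4, SOX11 and ISL1, transcription factors that act early in the lineage, and ISL1 had 155, 147, 178, 154 and 166 CPM in the central libraries and 186, 166, 183, 152 and 175 CPM in the temporal libraries, against 289.6, 276, 284, 251 and 291 CPM in the nasal libraries. Its log2 change was -0.75 (SE 0.05, adjusted p = 5.7e-08). POU4F1, a ganglion cell factor, was not a shared call, at 204 ± 36.9 CPM in central and 181 ± 17.1 CPM in temporal libraries, against 170.3 ± 23.1 CPM in nasal libraries (SD, n = 5 each). Its relative POU4F2 was not a shared call either, but all its foveal libraries (104.7 to 202.7 CPM) lay above the nasal ones (78.0 to 102.7 CPM). POU4F3 had a foveal median of 3.01 CPM, against 3.22 CPM in nasal libraries. Without the replicate block, the rises numbered 3.

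Amacrine and horizontal cell genes had 7 shared rises and 2 shared falls among 23. Genes of inhibitory transmission made up most of the rises. GAD1 and GAD2, which make the transmitter GABA, had log2 changes of 0.88 (SE 0.08, adjusted p = 5.2e-07) and 0.74 (SE 0.07, adjusted p = 2.1e-06). The glycine transporter SLC6A9 and the vesicular transporter SLC32A1 had 0.72 (SE 0.08, adjusted p = 4.2e-06) and 0.51 (SE 0.07, adjusted p = 5.1e-05). The peptide gene TAC1 and the calcium-binding protein CALB1 rose with SST, at 1.14 (SE 0.07, adjusted p = 3.7e-08) and 1.67 (SE 0.13, adjusted p = 1.3e-07). The falls were the LIM-homeodomain factors LHX1 and LHX9, at -0.69 (SE 0.10, adjusted p = 8.3e-05) and -0.75 (SE 0.10, adjusted p = 6.8e-05).

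Photoreceptor and bipolar genes had 7 shared rises and 3 shared falls among 23. The rises were genes of phototransduction. OPN1LW, the long-wavelength cone opsin, whose symbol stands on 4 gene models, was read from ANOSAT004388 and had 1270.5, 1503, 1271, 1422 and 1238 CPM in the central libraries and 987, 1013, 951, 1053 and 917 CPM in the temporal libraries, against 729, 635, 609, 717 and 617 CPM in the nasal libraries, with no overlap and a log2 change of 0.80 (SE 0.06, adjusted p = 6.1e-08). OPN1SW, the short-wavelength cone opsin, was at 108 ± 36.2 CPM in central and 62.8 ± 7.61 CPM in temporal libraries, against 31.6 ± 5.83 CPM in nasal libraries (SD, n = 5 each). The 3 gene models named for cone arrestin (ARR3) had log2 changes of 1.14, 0.97 and 0.94, and reads could be split between them. The falls, PRKCA, VSX1 and ISL1, are bipolar cell genes, and VSX1 had a log2 change of -0.55 (SE 0.05, adjusted p = 2.5e-06). ISL1 was also counted among the ganglion cell genes. Other bipolar genes of the list were not shared falls. Over the 10 foveal libraries, GRIK1, CABP5, GRM6 and PCP2 had medians of 571, 441, 103 and 322 CPM, against 569, 345, 116 and 362 CPM in nasal libraries. GNAT1, the rod transducin subunit, was not a shared call, with a log2 change of -1.97 (adjusted p = 0.011) in central and -0.26 (adjusted p = 0.793) in temporal.

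**Figure D4:**
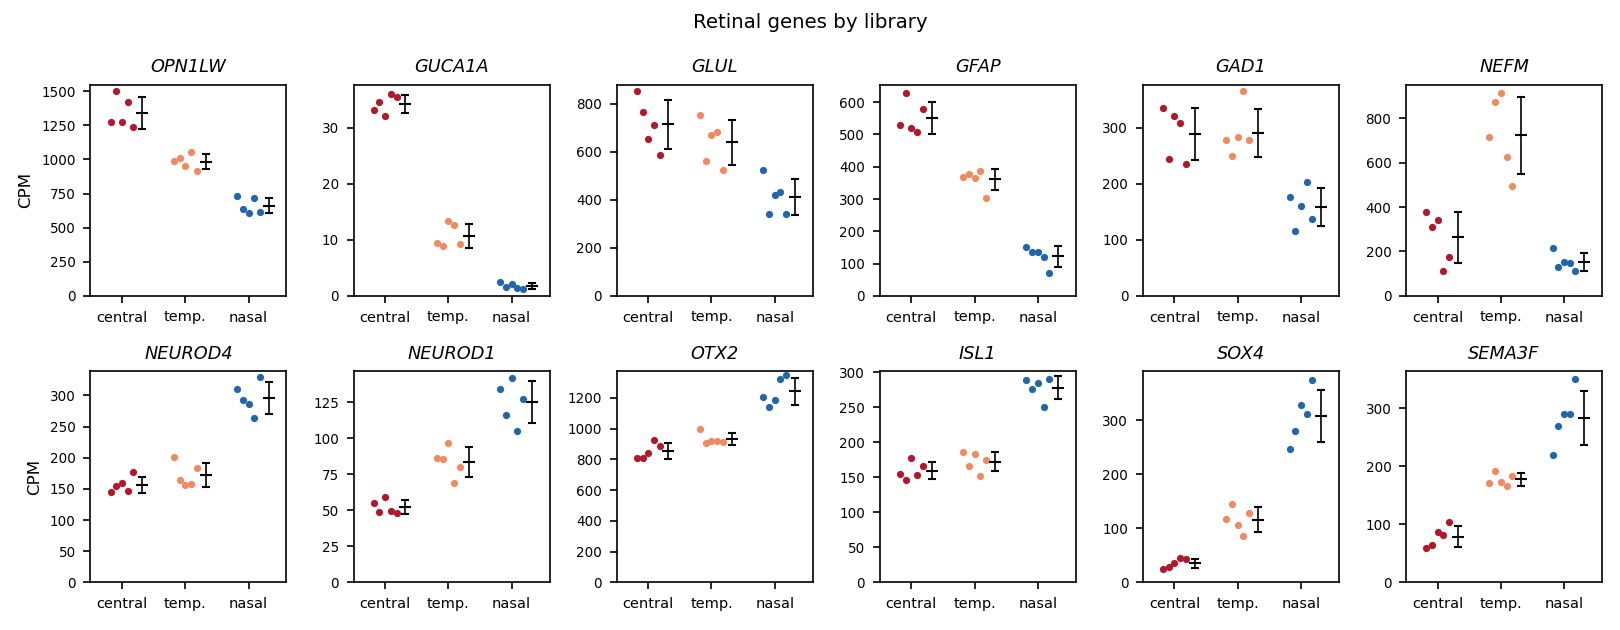
CPM (vertical, from 0) of 12 retinal genes in the central, temporal and nasal libraries, 1 point per library, with the mean and SD of 5 libraries drawn beside each region. The upper 6 genes are shared rises, and the lower 6 are shared falls. GUCA1A is gene model ANOSAT009808, OTX2 is ANOSAT015847 and SEMA3F is ANOSAT005720.

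Müller glia genes had 4 shared rises and no shared fall among 14, namely CA2, GLUL, RLBP1 and VIM. GLUL (ANOSAT010639), glutamine synthetase, had 853, 767, 651, 711 and 587 CPM in the central libraries and 754, 562, 670.1, 684 and 525 CPM in the temporal libraries, against 524, 340.0, 422, 433 and 342 CPM in the nasal libraries, a log2 change of 0.72 (SE 0.07, adjusted p = 1.1e-06). RLBP1, which carries retinoids, and VIM, an intermediate filament, had log2 changes of 0.81 (SE 0.09, adjusted p = 4.9e-06) and 0.70 (SE 0.08, adjusted p = 7.3e-06). GFAP, an intermediate filament of astrocytes and reactive glia, had 529.7, 627, 519, 507 and 578 CPM in the central libraries and 368, 379, 367, 388 and 302 CPM in the temporal libraries, against 153, 135, 135, 120.1 and 69.7 CPM in the nasal libraries, with the 3 regions apart and a log2 change of 1.89 (SE 0.12, adjusted p = 3.4e-08). It stood in the list of optic nerve head and optic stalk genes, where PMP2 and PAX2 were the other 2 shared rises of 15, although the list's median log2 change was -0.13. For the mean of the foveal regions, 4 gene models of that list were called higher and 4 lower. Among its lower members, ZIC1 and ZIC2 had foveal medians of 3.16 and 1.34 CPM, against nasal medians of 11.9 and 3.50 CPM. PAX2, a factor of the optic stalk, was at 29.1 ± 5.89 CPM in central and 0.437 ± 0.223 CPM in temporal libraries, against 0.185 ± 0.0879 CPM in nasal libraries (SD, n = 5 each), so that temporal passed the test at under 1 CPM. The summed level of that list was 871 to 1151 CPM in central and 774 to 952 CPM in temporal libraries, against 423 to 519 CPM in nasal libraries. GFAP made up a large part of this sum, with medians of 530, 368 and 135 CPM in central, temporal and nasal libraries. The part of optic nerve tissue in the foveal rises was not tested.

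Other tissues of the posterior globe were counted in the same way. Pigment epithelium had 4 shared rises among 20 (LRAT, RDH5, MERTK and RPE65) and no shared fall. For the mean of the foveal regions, 5 were called higher and 1 lower. TTR and BEST1 were below all nasal libraries in every central library, while temporal overlapped nasal. TTR was at 59.4 to 112 CPM in central, 259.7 to 395.4 CPM in temporal and 244.8 to 315 CPM in nasal libraries. BEST1 was at 10.58 to 13.71, 15.25 to 22.15 and 14.78 to 22.2 CPM in the same order. RPE65, the isomerase of the visual cycle, had 414, 459, 339, 498 and 348 CPM in the central libraries and 362, 282, 322, 353 and 207 CPM in the temporal libraries, against 236, 222, 205, 217 and 176 CPM in the nasal libraries. The melanin genes TYR, TYRP1, DCT and PMEL were not shared calls, and TYRP1 was at 217 ± 74.3 CPM in central and 255 ± 37.4 CPM in temporal libraries, against 204 ± 22.5 CPM in nasal libraries (SD, n = 5 each). The summed level of the list was 1811 to 3267 CPM in central and 2296 to 2855 CPM in temporal libraries, against 1881 to 2299 CPM in nasal libraries. The part of adjoining tissue in these rises was not tested.

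Lens genes had 4 shared rises among 12, ASL, CRYAB, CRYBA1 and BFSP2, and the list's summed level was 239 to 348 CPM in central and 77.8 to 134 CPM in temporal libraries, against 27.2 to 45.3 CPM in nasal libraries. ASL and CRYAB, a small heat-shock protein, carried most of it, and CRYAB (ANOSAT017970) was at 149 ± 17.2 CPM in central and 52.1 ± 16.7 CPM in temporal libraries, against 10.5 ± 3.31 CPM in nasal libraries (SD, n = 5 each). The lens crystallin CRYAA was near 0, at 0.774 ± 0.661 CPM in central and 1.12 ± 0.903 CPM in temporal libraries, against 0.137 ± 0.129 CPM in nasal libraries (SD, n = 5 each), and CRYBA1 was at 0.940 ± 0.562 CPM in central and 2.001 ± 0.629 CPM in temporal libraries, against 0.156 ± 0.140 CPM in nasal libraries (SD, n = 5 each). Blood vessels had 3 shared rises among 17, 1 gene model of KDR and 2 of 3 gene models of FLT1, both receptors for VEGF, and the rises numbered 1 without the replicate block. The KDR gene model that rose (ANOSAT019569) was at 18.5 ± 2.05 CPM in central and 16.7 ± 2.64 CPM in temporal libraries, against 11.1 ± 3.06 CPM in nasal libraries, while the most abundant one (ANOSAT012859) was not a shared call, at 134 ± 18.9 CPM in central and 126 ± 10.1 CPM in temporal libraries, against 134 ± 4.69 CPM in nasal libraries (SD, n = 5 each). Blood cells had 1 of 7 (CSF1R), and 0 without the replicate block. Cartilage and sclera (17) and skeletal muscle (12) had no shared call. Without central replicate 4, cartilage and sclera had 1 shared fall and skeletal muscle 1 shared rise. Fibrous connective tissue and choroid had 2 falls among 26, both of them gene models of TNC. The ciliary margin and iris had 1 rise and 2 falls among 12, and the falls, WFDC1 and OTX1, were not called without the replicate block.

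FGF signalling had 5 shared rises and no shared fall among 26, and the number was 9 without central replicate 4 and 2 without the replicate block. FGF9, a ligand made by the retina, had 48.4, 40.0, 38.6, 48.2 and 35.2 CPM in the central libraries and 45.8, 45.7, 57.9, 44.1 and 37.2 CPM in the temporal libraries, against 19.6, 19.5, 16.4, 13.7 and 14.5 CPM in the nasal libraries, with no overlap and a log2 change of 1.40 (SE 0.11, adjusted p = 2e-07). ETV5, a transcriptional target of FGF signalling, and SPRED1, an inhibitor of the pathway, had 0.56 (SE 0.06, adjusted p = 7e-06) and 0.40 (SE 0.07, adjusted p = 0.00058). Of the 26, 10 were called higher and 3 lower for the mean of the foveal regions. DUSP6, SPRED2 and IL17RD were not shared calls. Their foveal medians were 21.4, 49.8 and 1.62 CPM, against nasal medians of 26.7, 64.7 and 2.185 CPM. BMP, TGF-beta and activin signalling had 4 rises and 2 falls among 37. FST, follistatin, which binds and blocks activin, had 306, 245, 280.1, 276 and 293 CPM in the central libraries and 75.1, 88.1, 96.3, 121 and 98.2 CPM in the temporal libraries, against 26.2, 30.5, 26.5, 37.8 and 26.1 CPM in the nasal libraries, a log2 change of 2.48 (SE 0.10, adjusted p = 5.9e-10). The inhibitor SMAD7 fell, at -0.73 (SE 0.09, adjusted p = 3.1e-05), and the falls of this list numbered 5 without central replicate 4. WNT signalling had 2 rises among 27, FRZB and SFRP1, and no fall, and the rises are about the share over all gene models. Without central replicate 4 it had 2 rises and 2 falls.

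Axon guidance cues had 13 shared rises and 4 shared falls among 55. SEMA3F, a secreted repellent, was the largest fall and had 58.5, 63.9, 87.6, 80.8 and 104 CPM in the central libraries and 170.5, 192, 173, 166 and 184 CPM in the temporal libraries, against 219.9, 269, 289, 290.3 and 349 CPM in the nasal libraries, with the 3 regions apart and a log2 change of -1.26 (SE 0.08, adjusted p = 3.7e-08). The neuropilin NRP2, a semaphorin receptor, rose at 1.13 (SE 0.11, adjusted p = 1.5e-06). SEMA3A and SEMA7A rose in 2 gene models each, at log2 changes of 0.56 and 0.82 for SEMA3A, and 0.99 and 0.88 for SEMA7A. A further SEMA7A gene model (ANOSAT006900) was close to nasal, with a foveal median of 10.8 CPM, against 9.38 CPM in nasal libraries. The netrin NTN4 and the ligand SLIT1 had log2 changes of 0.50 (SE 0.08, adjusted p = 0.00024) and 0.44 (SE 0.08, adjusted p = 0.0010). The 4 falls became 1 without the replicate block.

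In 31 gene models (0.195% of those tested) central and temporal both differed from nasal but in opposite directions, 26 with temporal above nasal and 5 with central above nasal. AHRR, the repressor of the aryl hydrocarbon receptor, had 1.11, 0.854, 0.999, 2.24 and 1.22 CPM in the central libraries and 76.8, 109, 119.8, 76.5 and 79.7 CPM in the temporal libraries, against 11.1, 15.6, 19.95, 23.4 and 18.2 CPM in the nasal libraries. The 3 regions did not overlap, and the log2 change was -3.80 (adjusted p = 7e-09) in central and 2.42 (adjusted p = 3e-07) in temporal. CYP1B1, a cytochrome P450 that the same receptor induces, went the other way in ANOSAT002696, 1 of 2 gene models, and had 195, 158, 221, 294 and 233 CPM in the central libraries and 7.98, 5.46, 12.9, 10.2 and 5.37 CPM in the temporal libraries, against 43.3, 45.5, 42.1, 33.2 and 21.2 CPM in the nasal libraries. Its log2 change was 2.58 (adjusted p = 1.7e-07) in central and -2.19 (adjusted p = 8.9e-06) in temporal. For the mean of both foveal regions its log2 change was 0.19 (SE 0.18, adjusted p = 0.491).

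The other opposite genes named by size were PRKCQ, INHBA, SYT5 and NTS. PRKCQ, protein kinase C theta, was at 2.04 ± 1.98 CPM in central and 15.1 ± 2.97 CPM in temporal libraries, against 3.998 ± 0.997 CPM in nasal libraries, and INHBA, the subunit of activin A, was at 0.796 ± 0.645 CPM in central and 13.6 ± 1.70 CPM in temporal libraries, against 6.402 ± 0.9996 CPM in nasal libraries (SD, n = 5 each). SYT5, a synaptotagmin of synaptic vesicles, and NTS, the peptide neurotensin, were higher in central and lower in temporal than in nasal, at 1189 ± 204 CPM in central and 494 ± 103 CPM in temporal libraries, against 602 ± 73.3 CPM in nasal libraries for SYT5 and 495 ± 69.9 CPM in central and 291 ± 35.5 CPM in temporal libraries, against 351 ± 28.1 CPM in nasal libraries for NTS (SD, n = 5 each). The opposite calls of PRKCQ, SYT5 and NTS were lost without the replicate block. That of SYT5 was also lost without temporal replicate 2 or nasal replicate 3, and that of NTS without temporal replicate 2, 4 or 5 or nasal replicate 1, 3 or 5. Among list members, the photoreceptor gene model GUCA1A (ANOSAT011655) had 4.40, 7.27, 6.38, 6.93 and 5.67 CPM in the central libraries and 32.2, 41.5, 49.9, 50.9 and 47.3 CPM in the temporal libraries, against 4.03, 6.98, 10.99, 14.7 and 13.0 CPM in the nasal libraries, unlike the GUCA1A gene model named among the largest rises. SLC1A3, the glial glutamate transporter, was at 1054 ± 259 CPM in central and 1869 ± 175 CPM in temporal libraries, against 1434 ± 108 CPM in nasal libraries (SD, n = 5 each), unlike the 4 shared rises of the Müller glia list. The number of opposite calls depended on single libraries, at 58 without central replicate 4, 20 without temporal replicate 2, 19 without nasal replicate 5 and 16 without nasal replicate 3, and it was 7 without the replicate block.

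**Figure D5:**
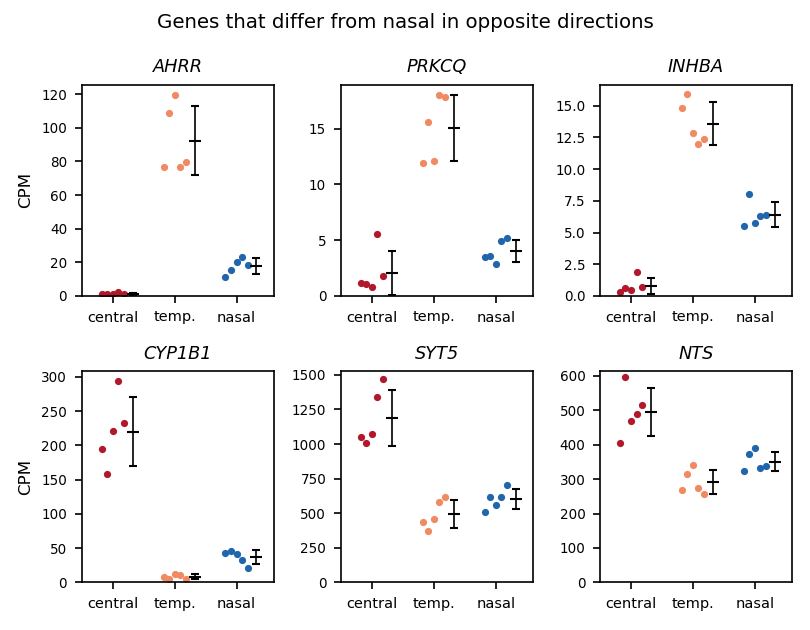
CPM (vertical, from 0) of the 6 named genes with opposite calls in the central, temporal and nasal libraries, 1 point per library, with the mean and SD of 5 libraries drawn beside each region. AHRR, PRKCQ and INHBA are highest in temporal and lowest in central, and CYP1B1, SYT5 and NTS are highest in central and lowest in temporal.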

How the data were processed

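Stranded mRNA libraries (TruSeq Stranded mRNA kit, Illumina NextSeq instrument) of 15 posterior globe samples were used. The deposited values are the authors' raw counts of reads for each gene model, without normalization. HISAT2 2.2.1 and featureCounts are named in the submitters' processing notes, while the genome build used for counting, and whether strand was used, are not given in the sources at hand. Gene names are the authors', assigned by protein similarity, so gene models that share a symbol, or overlap another gene, are uncertain.

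The main test was the robust quasi-likelihood test of edgeR 4.0.16 (R 4.3.3), fitted to all 15 libraries with region and replicate number, after filterByExpr (minimum count 10) and TMM scaling. Benjamini-Hochberg adjustment ran over the 15910 gene models that passed the filter, with a threshold of 0.05, and every adjusted p in the text is from this test unless another tool is named. The log2 change of the foveal regions is the mean of those of central and temporal, minus nasal.  The labels do not say what a replicate number stands for, such as shared embryos or a shared batch. Libraries of the same number varied together, since deviations from the region mean correlated over 0.1 in 15 of 15 pairs of libraries with the same number (0.193 to 0.524) and in 3 of 60 pairs with different numbers. Deviations from a region mean cancel out within the region. High values for the same number therefore by themselves lower those for different numbers.

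The members and gene lists were chosen with earlier results of these data known. Genes named in the text are the 15 largest shared rises and falls with no overlap of libraries and at least 5 CPM in the higher group, the 6 of each whose foveal regions differ by under 0.25 log2, the 3 most abundant shared calls in each direction, the 3 largest opposite calls in each direction, and list members by size of change. List members given by their values although they were not shared calls were picked after their values were seen. Alternatives were the fit without the block, DESeq2 1.42.0, scaling by RLE or by upper quartile, leaving out the filter, a minimum count of 50, limma-voom with quality weights (limma 3.58.1), an adjusted p of 0.01, the larger of the 2 p-values adjusted once, and leaving out each library. List counts without central replicate 4 and without the block were added after seeing the data. Scripts were tested on simulated data. The results of a few single genes are not reported here or plotted, and the counts include them. Plots used Python 3.11.15 and matplotlib 3.10.9.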

Additional observations from a re-analysis of the deposited data

Results flagged for a closer look

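Single libraries lay far from the other 4 of their region in 16 of 234 groups of 5 that were examined, where chance gives about 1 in 20. The total is thus not far above that rate, and the groups are not independent, since they come from the same 15 libraries. Central replicate 4 accounted for 9 of the 16. It had reads in 14994 gene models (17603 to 18617 in the other 4), and its summed levels were 3267 CPM for pigment epithelium and melanin genes (1811 to 2188 CPM), 3923 CPM for fibrous connective tissue and choroid genes (645 to 1507 CPM), 374 CPM for blood vessel genes (233 to 260.5 CPM) and 1211 CPM for FGF signalling genes (1037 to 1087 CPM). In the same library GUCA1B was at 8.27 CPM (19.3 to 23.2 CPM), PRKCQ at 5.52 CPM (0.777 to 1.76 CPM), AHRR at 2.24 CPM (0.854 to 1.22 CPM) and INHBA at 1.92 CPM (0.334 to 0.684 CPM).

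Of the other 7, central replicate 2 was high for DUPD1 (12.1 CPM, against 7.62 to 8.58 CPM in the other central libraries), and central replicate 5 for NR2E3 (1.32 CPM, against 0 to 0.333 CPM). Temporal replicate 4 was high for the sum of Müller glia genes (6558 CPM, against 5961 to 6062 CPM in the other temporal libraries), and temporal replicate 5 for ASL (37.1 CPM, against 5.21 to 13.3 CPM). Nasal replicate 1 was high for HK2 (5.69 CPM, against 1.77 to 2.62 CPM in the other nasal libraries) and low for PLCXD1 (29.5 CPM, against 51.6 to 55.3 CPM), and nasal replicate 5 was low for HNMT (11.2 CPM, against 16.8 to 19.1 CPM).

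Temporal and central differed from each other, by the edgeR test of that difference, in 33 of the 52 genes named by rule, against 12.7% of all gene models tested. The genes were chosen by values of these same libraries, opposite calls for a difference and others for likeness. The count therefore describes the choice and tests nothing. These values are log2 changes of temporal minus central. Among shared calls, they were above 0 for NR2E3 3.59, SOX12 2.36, SOX4 1.75, GRASP 1.69, VWA5B2 1.39, SBSPON 1.19, CUNH8ORF58 1.10, GDPD3 0.92, MEX3A 0.84, LOC106609882 0.76, CALML4 0.62, RELN 0.43 and CKB 0.26, and below 0 for CYP26C1 -6.23, PMP2 -3.58, TBX18 -3.05, ASL -2.86, MGP -2.63, ADGRE5 -2.30, UBAP1L -2.19, HK2 -2.01, KANK4 -1.87, SST -1.74, GUCA1A -1.70, GUCA1B -1.52, DUPD1 -1.47 and CA2 -1.45. Among the opposite calls they were AHRR 6.22, INHBA 4.19 and PRKCQ 3.14 on the temporal side, and CYP1B1 -4.77, SYT5 -1.27 and NTS -0.77 on the central side.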

How the results depend on the processing

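For the 52 genes named by rule, the foveal change against nasal (for opposite calls, temporal against central) kept its direction and its side of the threshold in each of 22 alternatives. The calls that define these genes, tracked over 23 alternatives in a check added after seeing the data, held in all of them for 37 of 46 shared and 3 of 6 opposite genes. Of the shared genes, 4 lost the call without the block, 5 at an adjusted p of 0.01 and 6 in at least 1 fit with a library left out. ABCB5 lost it in limma-voom. Counts moved more. The block was set as part of the comparison itself, and libraries with the same replicate number varied together, although the labels do not say what the number stands for. Without the replicate block the calls numbered 2349 for the foveal regions against nasal, 2925 for central against nasal, 1048 for temporal against nasal, 1078 for temporal against central and 796 for shared foveal calls, 68.0% of them rises, against 57.7% with the block. Of the 796, 795 were among the 1647. At an adjusted p of 0.01 the same counts were 2405, 2853, 1186, 1100 and 894. In limma-voom with quality weights they were 4267 for temporal against nasal, 3253 for temporal against central and 3073 for shared calls. Leaving out each library in turn gave 2806 to 5077, 3550 to 5095, 1446 to 3378, 1357 to 2278 and, for shared calls, 1102 to 2411. For temporal against nasal the lowest came without nasal replicate 3 and the highest without central replicate 4. DESeq2 (1981 shared calls), both scalings, both filters and the adjustment of the larger p-value (1367) stayed within 1.5 times. Opposite calls were 7 without the block, 96 in limma-voom and 8 at an adjusted p of 0.01, and 16 to 58 with a library left out. The cause of these shifts was not tested. Depth limits the values under 1 CPM, which rest on few reads.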

Other observations

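The lists in this part were chosen after values of these data had been seen, so they describe the libraries and test nothing. Over all gene models tested, 5.98% were shared rises and 4.37% shared falls. Glycolysis and lactate transport had 24 shared rises and no shared fall among 37 gene models tested, with a median log2 change of 0.87, against -0.03 over all gene models tested. The rises included HK2, the glucose transporter SLC2A1, which averaged 1492, 1072 and 836 CPM in central, temporal and nasal libraries, PFKFB3, which makes the activator of phosphofructokinase (61.3, 31.7 and 12.4 CPM), the neuronal enolase ENO2 (2586, 1307 and 674 CPM), lactate dehydrogenase LDHA (2144, 935 and 549.7 CPM) and the lactate transporter SLC16A1 (506, 253 and 122 CPM). All 6 lay above nasal in each of the 10 foveal libraries, and central was the highest region of each. The other 13 gene models were not shared calls, among them the phosphofructokinases PFKP, PFKL and PFKM, and PFKFB4 had a log2 change of -0.34 (SE 0.09, adjusted p = 0.0098). Factors of the oxygen response had 4 shared rises and 1 shared fall among 22 and a median log2 change of -0.03, and the fall is about the share over all gene models. HIF1A, the oxygen-regulated subunit of hypoxia-inducible factor, was at 1351 ± 271 CPM in central and 521 ± 32.4 CPM in temporal libraries, against 241 ± 27.3 CPM in nasal libraries (SD, n = 5 each), and its homologue EPAS1 at 84.7 ± 20.8 CPM in central and 74.7 ± 11.3 CPM in temporal libraries, against 51.9 ± 10.4 CPM in nasal libraries (SD, n = 5 each), while DDIT4, which is induced by hypoxia in mammals, was lower, at a log2 change of -0.45.

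LIM-homeodomain factors, which specify neuron classes, had 5 shared falls and no shared rise among 9, with a median log2 change of -0.63. The falls were ISL1, LHX9, LHX4, LHX1 and LHX3, and LHX4 averaged 61.4, 68.2 and 105 CPM in central, temporal and nasal libraries. The hnRNP proteins, which bind nascent RNA and steer splicing, had 12 shared falls and no shared rise among 24, with a median log2 change of -0.24. These falls were small, and the largest was that of HNRNPA0, at 18.5 ± 4.17 CPM in central and 24.6 ± 5.41 CPM in temporal libraries, against 42.9 ± 5.88 CPM in nasal libraries (SD, n = 5 each), followed by HNRNPL, at a log2 change of -0.70.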
